A study of Mus musculus with 40 samples.

Results

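The Hsd17b genes encode dehydrogenases of the short-chain family that were named for their action on the hydroxyl group at carbon 17 of sex steroids. In this series, 8 of them were described in mouse renal cortex, out of 55401 genes in the count table. Hsd17b2, Hsd17b4, Hsd17b7, Hsd17b10, Hsd17b11, Hsd17b12 and Hsd17b14 were found by their symbol, which is 7 of the 8. Hsd17b8 was found under the name H2-Ke6, which RefSeq lists as the same gene. The genes were selected on the family name with measured values in view, namely the levels of Akita and WT mice on the ethanol vehicle, among them a low Hsd17b11 in Akita mice. The values of that pair are therefore given as a description without a test.

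Total RNA of renal cortex, depleted of ribosomal RNA, was sequenced from 40 male C57BL/6J mice in 8 groups of 5. In 4 groups the mice were heterozygous for Ins2-Akita, a dominant mutation of an insulin gene that makes the mice diabetic, and the others were WT littermates. Both genotypes received the ethanol vehicle (10% ethanol in water), MitoGamide (10 mg/kg in that vehicle), water, or MitoQ with water as its vehicle. The stated schedule for vehicle and MitoGamide was daily oral gavage from 6 to 22 weeks of age, or 16 weeks. The dose and route of MitoQ are not given in the sources used here. MitoGamide and MitoQ are small molecules that carry a triphenylphosphonium group, which draws them into mitochondria. The mutation changes insulin protein made in the pancreas, so the renal counts do not check the genotype labels. The labels describe individual animals, and no litter or batch was named.

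Several of these enzymes have little to do with sex steroids. Hsd17b2 oxidises estradiol and testosterone to their less active keto forms, and Hsd17b11 can oxidise an androgen metabolite but sits on lipid droplets. Hsd17b7 reduces a ketosteroid in cholesterol synthesis, Hsd17b12 reduces the keto intermediate in the elongation of very long chain fatty acids, and Hsd17b4 is the bifunctional enzyme of peroxisomal beta-oxidation. Hsd17b8 forms with Cbr4 the ketoacyl reductase of mitochondrial fatty acid synthesis. Hsd17b10 acts in mitochondria on isoleucine breakdown and is a subunit of mitochondrial RNase P with Trmt10c. Hsd17b14 is a cytosolic member with a less settled substrate. In the kidney, the proximal tubule is rich in both lipid oxidation and steroid conversion.

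The sequences before the start sites of Hsd17b11 and Hsd17b7 are shown because these members, with Hsd17b2, passed a test between groups. They were read from RefSeq promoter windows on GRCm38.p6, which held an entry for Hsd17b7, Hsd17b8, Hsd17b10, Hsd17b11 and Hsd17b12, and were kept up to the base before the annotated start of the gene. Capitals mark matches on either strand to short motifs, none of which overlapped another in the parts shown. The motif bound by Sp factors was searched as GGGCGG. The motif bound by the factor NF-Y was searched as CCAAT. The E-box was searched with the letters CACGTG. The nuclear receptor half-site was searched with the letters AGGTCA. The core motif that some promoters hold near the start was searched as TATAAA.
Hsd17b11, chr5:104021920-104022046, minus strand: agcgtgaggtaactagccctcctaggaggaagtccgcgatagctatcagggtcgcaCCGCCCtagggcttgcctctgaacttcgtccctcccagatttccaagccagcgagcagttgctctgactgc
Hsd17b7, chr1:169969242-169969455, minus strand: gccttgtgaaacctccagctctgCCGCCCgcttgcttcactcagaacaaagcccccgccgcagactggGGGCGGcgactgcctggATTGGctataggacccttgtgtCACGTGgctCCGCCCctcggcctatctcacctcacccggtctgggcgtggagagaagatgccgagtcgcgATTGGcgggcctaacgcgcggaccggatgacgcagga

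The part shown for Hsd17b11 held 1 Sp motif. That of Hsd17b7 held 3 Sp motifs, 2 NF-Y motifs and 1 E-box. Neither the core motif nor the half-site was found in these stretches. Among all 32851 promoter windows of 300 bases, the Sp motif was present in 35.7%, the NF-Y motif in 37.4%, the E-box in 7.15%, the half-site in 16.3% and the core motif in 13.6%. The parts shown, of 127 bases for Hsd17b11 and 214 bases for Hsd17b7, are shorter than these windows. In the window of each gene, a further NF-Y motif lay past the part shown. A match describes the letters only.

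The members lie on 8 chromosomes of the GRCm38 build, at positions taken from GENCODE release M21. Hsd17b11 (ENSMUSG00000029311.16) is at chr5:103989762-104021919 on the minus strand, next to its close relative Hsd17b13 at chr5:103955440-103977410. Hsd17b2 (ENSMUSG00000031844.8) is at chr8:117701904-117759027 on the plus strand, and an antisense gene, Gm31774, lies within it without sharing exon bases. Hsd17b7 (ENSMUSG00000026675.12) is at chr1:169949535-169969241, Hsd17b12 (ENSMUSG00000027195.10) is at chr2:94032689-94157964, and both are on the minus strand. Hsd17b4 (ENSMUSG00000024507.6) is at chr18:50128201-50196269, Hsd17b10 (ENSMUSG00000025260.10) at chrX:152001845-152004442 and Hsd17b14 (ENSMUSG00000030825.19) at chr7:45554893-45567752, all on the plus strand. Hsd17b8 (ENSMUSG00000073422.11) is at chr17:34026033-34028060 on the minus strand. The transcript Gm20427 covers 86.4% of the exon bases of Hsd17b8 on the same strand, with 0 to 41 counts per library, so the counts of Hsd17b8 are uncertain to the extent that reads were split between them.

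Library totals were between 9106654 and 24321424 counts. The libraries of the ethanol arm (ethanol and MitoGamide) had 28.6% to 38.0% of their counts in their 10 highest genes, against 24.8% to 72.5% in the water arm (water and MitoQ). Of the 40 libraries, 10 exceeded 40%, and all of them were in the water arm, 3 each in Akita and WT mice on water and 2 each on MitoQ. Levels are given as CPM (counts relative to the library total) after TMM scaling over all 40 libraries. Even so, deviations of log2 CPM from the group means went with this share, with r = -0.80 for Hsd17b10, -0.81 for Hsd17b7, -0.73 for Hsd17b4, -0.71 for Hsd17b12, -0.63 for Hsd17b11, -0.56 for Hsd17b8, -0.24 for Hsd17b2 and 0.29 for Hsd17b14 over 40 libraries, a description in which all points share depth and scaling. Proximal tubule markers, which define renal cortex, summed to 10070 to 19740 CPM. Replicate 1 of WT mice on water stood apart, with 292 CPM of the liver gene Alb against a median of 5.58 CPM over all libraries. The adrenal markers Cyp11b1, Cyp21a1 and Nr5a1 were at 0 in 23, 28 and 38 libraries and Cyp11b2 in all 40, and the adrenal list summed to at most 7.26 CPM.

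**Figure D1:**
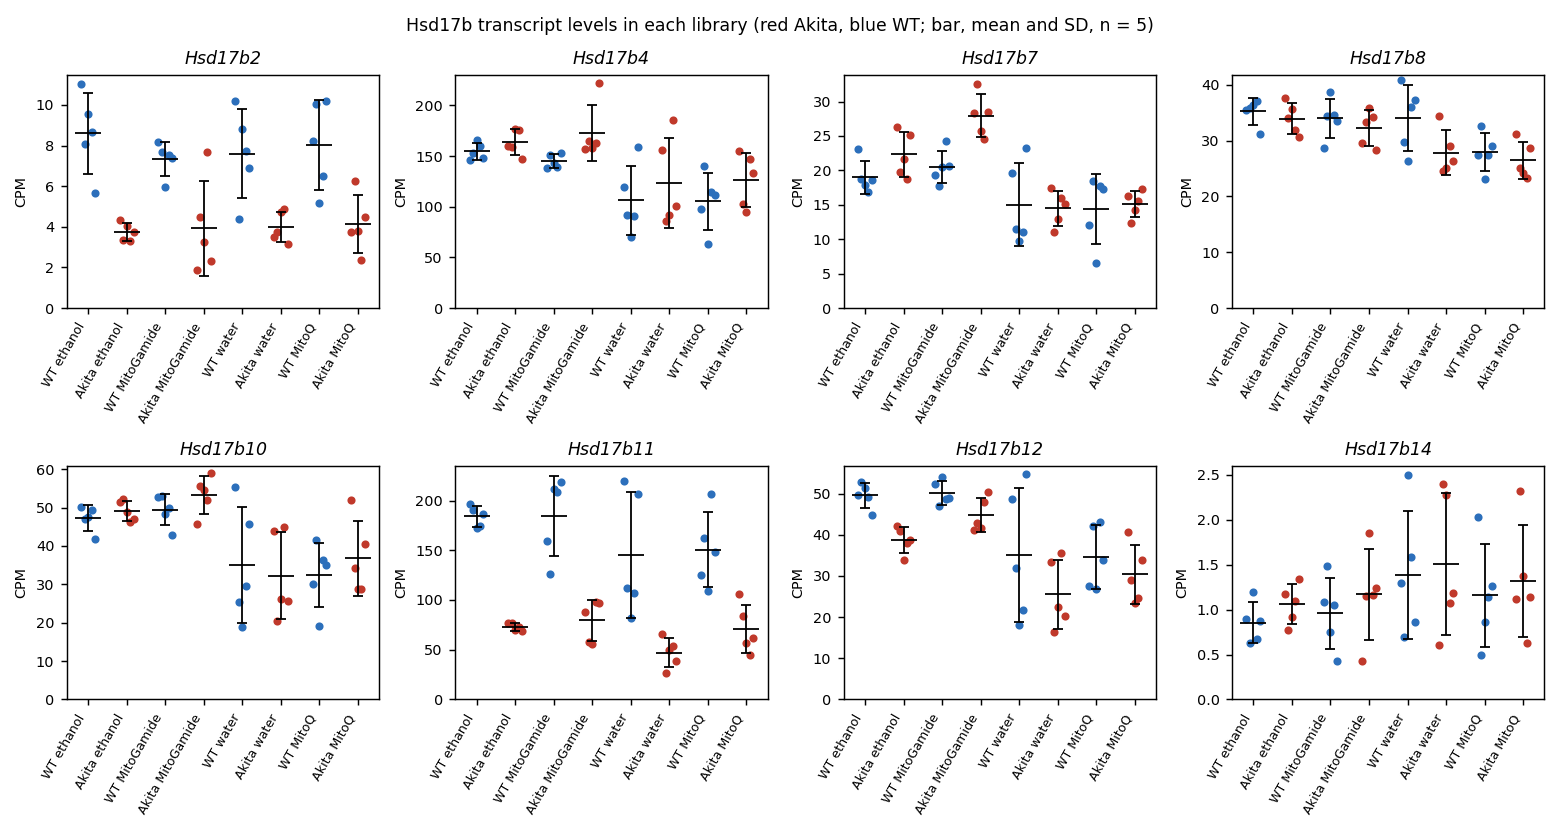
Level of each Hsd17b member (CPM, linear axis from 0) in the 40 libraries, by group, with Akita in red and WT in blue. Points are libraries and bars give the mean and SD of 5. Hsd17b11 and Hsd17b2 were lower in Akita mice, and most other members were lower and more spread in the water arm than in the ethanol arm. The ethanol libraries served in choosing the genes, so their points are a description.

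Levels between members were compared per kilobase of exon. The order by the median over 40 libraries was Hsd17b4 (43.2 CPM per kilobase), Hsd17b10 (35.2), Hsd17b11 (31.3), Hsd17b8 (19.2), Hsd17b12 (17.0), Hsd17b7 (3.56), Hsd17b2 (2.82) and Hsd17b14 (0.551). This order differed by genotype in medians that include the ethanol libraries, which served in choosing the genes, so it is a description. The Hsd17b11 median was 20.7 in Akita and 53.1 in WT libraries, against 45.9 and 41.1 for Hsd17b4. Hsd17b2 was at 1.95 in Akita and 4.11 in WT libraries, against 3.55 and 3.56 for Hsd17b7. Hsd17b4 ranged from 18.5 to 65.3 CPM per kilobase, Hsd17b10 from 14.6 to 45.4 and Hsd17b11 from 8.28 to 67.3, so these neighbours overlapped. So did Hsd17b8 (14.1 to 24.9) with Hsd17b12 (6.78 to 22.8), and Hsd17b7 (1.27 to 6.39) with Hsd17b2 (0.975 to 5.73). Hsd17b14 was last in every library. In the 30 libraries other than the ethanol pair, Hsd17b4 ranked first in 15 of 15 Akita libraries and Hsd17b11 in 14 of 15 WT libraries. All 8 members passed the filter of a mean of at least 10 counts in each comparison. Hsd17b14 had 4 to 42 counts per library, so that only large differences were detectable for it at this depth.

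The question put to the first comparison was how the members differ between diabetic and WT kidneys. On the ethanol vehicle, which served in choosing the genes, Hsd17b11 was at 76.5, 77.2, 69.3, 72.7 and 68.9 CPM in Akita mice and at 196, 190, 173, 174 and 187 CPM in WT mice. The groups lay far apart, with a log2 fold change of -1.32 ± 0.06 (SE). Hsd17b2 was at 4.33, 3.35, 4.03, 3.28 and 3.73 CPM in Akita mice and at 11.0, 8.09, 9.56, 8.65 and 5.65 CPM in WT mice, a log2 difference of -1.18 ± 0.16. Hsd17b12 was at 33.8 to 42.2 CPM against 44.8 to 52.9 CPM. These 3 members did not overlap between the genotypes here, beside 13.0% of the genes with sufficient counts, and nothing is read from this pair. The other 5 had log2 differences between -0.04 and 0.32.

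The test used the 30 libraries of the other treatments, with Akita and WT compared within MitoGamide, water and MitoQ at once. Hsd17b11 and Hsd17b2 fell in Akita mice, to 0.410 and 0.535 of the WT level, and the other 6 members did not pass the test. Hsd17b11 changed by -1.29 ± 0.16 on the log2 scale (95% interval -1.61 to -0.96, adjusted p = 8.1e-07, edgeR quasi-likelihood test), and Hsd17b2 by -0.90 ± 0.16 (-1.24 to -0.57, adjusted p = 2.1e-04). Of 17778 genes tested, 13.5% were called, and 5.71% were called lower in Akita mice. Both members kept the call under all alternatives and without any one of the 30 libraries, with values of -1.35 to -1.23 for Hsd17b11 and -1.04 to -0.85 for Hsd17b2 when 1 library was left out. With only the 20 of these 30 libraries that had at most 40% of counts in 10 genes, the values were -1.31 for Hsd17b11 and -0.97 for Hsd17b2. On MitoGamide no library was over this limit, and the share was 35.6% to 37.8% in Akita and 29.9% to 36.0% in WT mice. The limit therefore does not match the genotypes on this share, and its part in the differences was not tested.

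Hsd17b11, the lipid droplet member, was lower in Akita mice under each of these 3 treatments. On MitoGamide its level was 87.7, 58.1, 56.1, 98.3 and 97.0 CPM in Akita mice and 159, 127, 212, 208 and 218 CPM in WT mice. On water it was 66.1, 27.0, 50.03, 53.5 and 38.8 CPM in Akita mice and 219.7, 112, 81.9, 107 and 207 CPM in WT mice. On MitoQ it was 106, 84.1, 56.4, 45.0 and 62.2 CPM in Akita mice and 125, 163, 109, 207 and 149 CPM in WT mice. In each of these pairs the highest Akita library was below the lowest WT library, narrowly so on MitoQ. Over these 3 treatments, 10 of 15 Akita libraries were below every WT library and 14 of 15 WT libraries were above every Akita library. Groups that do not overlap were found for 12.4% of genes on MitoGamide, 2.53% on water and 2.93% on MitoQ.

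One treatment at a time, the Hsd17b11 difference was -1.19 ± 0.20 on MitoGamide (adjusted p = 0.00303), -1.63 ± 0.32 on water (adjusted p = 0.0515) and -1.09 ± 0.24 on MitoQ (adjusted p = 0.0748), by edgeR's quasi-likelihood test. It was thus called on MitoGamide, where 14.3% of genes were called, and missed the threshold on water and MitoQ, where 0.552% and 0.557% of genes were called. On each of these, edgeR called 0 members, of which 2 had an unadjusted p under 0.05, and DESeq2 called 2, Hsd17b11 and Hsd17b2, beside 1.93% of genes on water and 2.29% on MitoQ. Without WT replicate 1 on water, the library that stood apart, the water value was -1.41 (adjusted p = 0.15). Leaving out WT replicate 3 on water gave a call (adjusted p = 0.0362), as did leaving out Akita replicate 1 (adjusted p = 0.0391) or WT replicate 3 (adjusted p = 0.0309) on MitoQ. With the level of olfactory and vomeronasal receptor transcripts as a covariate, the MitoGamide value was -1.46 with an adjusted p of 0.0869, in a fit that called 91 genes in all. On MitoGamide that level was 449 to 801 CPM of the library total in Akita mice and 859 to 1468 CPM in WT mice. The groups did not overlap, so that fit cannot cleanly separate the covariate from genotype. The same covariate gave calls on water (-1.58, adjusted p = 0.00202) and on MitoQ (-1.16, adjusted p = 0.0065), where the fit of all 40 libraries did so too (-1.62, adjusted p = 9.5e-05, and -1.08, adjusted p = 0.0124). Between water and MitoQ, the interaction given with the MitoQ comparison tests whether the difference varied. MitoGamide was not set against water or MitoQ in such a test.

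Hsd17b2, which inactivates estradiol and testosterone, was a low transcript with 24 to 239 counts per library. On MitoGamide it was at 1.88, 4.48, 3.28, 7.68 and 2.32 CPM in Akita mice and at 8.16, 7.67, 5.96, 7.53 and 7.37 CPM in WT mice. Akita replicate 4 alone lay within the WT range. On water it was at 3.48, 3.76, 4.72, 4.86 and 3.17 CPM against 10.2, 4.39, 8.79, 7.74 and 6.90 CPM. On MitoQ it was at 3.75, 6.26, 3.82, 2.36 and 4.51 CPM against 8.22, 10.1, 5.19, 6.48 and 10.2 CPM. On water and on MitoQ, 1 WT library lay within the Akita range. The single-treatment values were -0.85 ± 0.31 on MitoGamide (adjusted p = 0.0838), -0.91 ± 0.23 on water (adjusted p = 0.159) and -0.99 ± 0.26 on MitoQ (adjusted p = 0.142), and none passed edgeR's test. DESeq2 called it on MitoGamide as well (adjusted p = 0.0379). The fit of all 40 libraries called it on MitoGamide (adjusted p = 0.027) and MitoQ (adjusted p = 0.049), and the libraries of at most 40% of counts in 10 genes did on MitoQ (-1.16, adjusted p = 0.0466). Without Akita replicate 4 the MitoGamide value was -1.24 (adjusted p = 0.00797), without WT replicate 2 the water value was -1.06 (adjusted p = 0.0473) and without WT replicate 3 the MitoQ value was -1.10 (adjusted p = 0.0467). Without WT replicate 1 on water, the library that stood apart, the water value was -0.77 (adjusted p = 0.42). The values nearest to 0 with 1 library left out were -0.69 on MitoGamide and -0.84 on MitoQ, neither of them called.

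Hsd17b7, the member of cholesterol synthesis, was higher in Akita mice on MitoGamide. It was at 28.4, 32.6, 25.7, 24.5 and 28.5 CPM in Akita mice and at 19.4, 17.8, 20.4, 24.2 and 20.6 CPM in WT mice. The lowest Akita library was just above the highest WT library, and the difference was called, at 0.48 ± 0.10 (adjusted p = 0.0118, edgeR). The call was lost with all 40 libraries in one fit, where the value was 0.47 (adjusted p = 0.0920), and with the receptor covariate, where it was 0.53 (adjusted p = 0.237). Receptor levels did not overlap between these groups, as given above. On water and MitoQ the log2 differences were -0.05 and 0.04, and over the 30 libraries the value was 0.17 ± 0.13 (adjusted p = 0.451).

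Among the members of fatty acid metabolism, Hsd17b4 had the largest value above 0 in the 30 libraries, at 0.27 ± 0.12 (adjusted p = 0.160, edgeR). On MitoGamide its Akita libraries, at 157 to 222 CPM, lay above the WT libraries, at 138 to 153 CPM, with a log2 difference of 0.28 ± 0.10 that missed the threshold of edgeR (adjusted p = 0.0666) and was called by DESeq2 (0.28, adjusted p = 0.0448). Without Akita replicate 5 on MitoGamide the value was 0.18. Hsd17b12 had a value of -0.25 ± 0.13 over the 30 libraries (adjusted p = 0.260). It passed the threshold with the receptor covariate, at -0.42 (adjusted p = 0.00226), and with the libraries of at most 40% of counts in 10 genes, at -0.25 (adjusted p = 0.0381). Hsd17b8 was at -0.12 ± 0.07 (adjusted p = 0.316) and was called with that covariate only, at -0.22 (adjusted p = 0.00577). Hsd17b10, at 0.08 ± 0.14, and Hsd17b14, at 0.21 ± 0.25, showed no difference that could be detected, with 95% intervals of -0.20 to 0.36 and -0.29 to 0.71. The median over the 8 members was -0.02, against 0.002 over all genes tested.

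**Figure D2:**
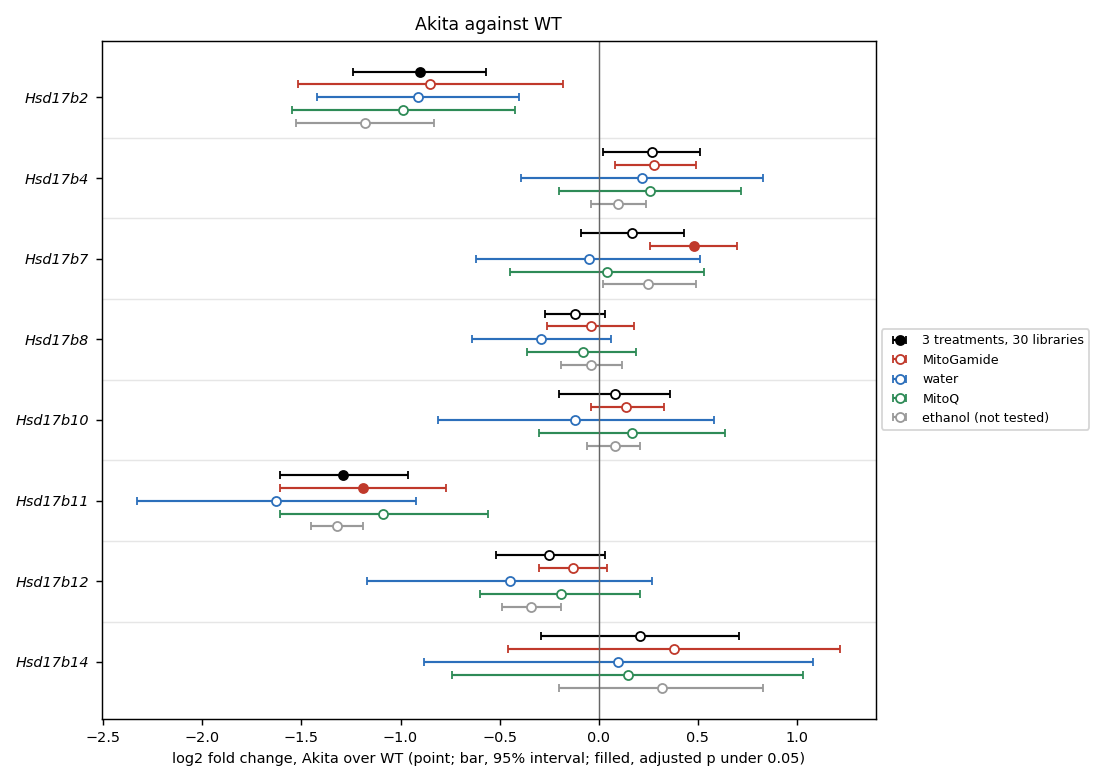
Difference between Akita and WT mice for each member, as log2 fold change with its 95% interval, over the 30 libraries and within each treatment. Filled points had an adjusted p under 0.05 and the ethanol pair was not tested. Within MitoGamide, water and MitoQ, Hsd17b11 lay between -1.63 and -1.09 and Hsd17b2 between -0.99 and -0.85, while the intervals of the other members mostly crossed 0.

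In bulk cortex, fewer cells of a type and less RNA per cell cannot be told apart. Proximal tubule markers summed to 10910 to 17770 CPM in Akita libraries (median 15310) and 10070 to 19740 CPM in WT libraries (median 17370). Macrophage markers summed to a median of 41.3 CPM in Akita and 55.4 CPM in WT libraries, and podocyte markers to 279 and 246 CPM. Collecting duct markers summed to 241 CPM in Akita and 191 CPM in WT libraries at the median, distal convoluted tubule markers to 972 and 749 CPM and thick ascending limb markers to 1378 and 1658 CPM. The hepatocyte list summed to 717 CPM in Akita and 1154 CPM in WT libraries, mostly through Cyp2e1 (median 749 CPM over all libraries), which the proximal tubule also expresses. Pooled over treatments, the ranges of all these sums overlapped between the genotypes. Within a treatment, macrophage sums did not overlap on water (29.7 to 44.7 CPM in Akita and 49.99 to 65.7 CPM in WT mice) or on MitoQ (27.8 to 41.1 and 44.3 to 65.8 CPM), proximal tubule sums did not on MitoGamide (14320 to 17250 and 17450 to 18480 CPM), and hepatocyte sums did not on ethanol (615 to 853 and 1100 to 1254 CPM). Their part in the differences was not tested.

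MitoGamide was compared with its ethanol vehicle in each genotype. In Akita mice edgeR called 0 members, beside 1.26% of genes, while 2 members and 3564 genes had an unadjusted p under 0.05. DESeq2 called 0 members, beside 6.27% of genes. The share of genes called by edgeR was 4.67% without Akita replicate 5 on MitoGamide and 1.24% without replicate 1, 0.591% without replicate 3, 0.174% without replicate 4 and 0.0761% without replicate 2. Without any one of the ethanol libraries it was at most 0.0235%, and 0 members were called in all 10 of these fits. Hsd17b7 had a value of 0.33 ± 0.11 (adjusted p = 0.129, edgeR), from 18.8 to 26.3 CPM on ethanol to 24.5 to 32.6 CPM on MitoGamide, which overlapped. Hsd17b12 was at 0.22 ± 0.08 (adjusted p = 0.165). Hsd17b11 was at 0.13 ± 0.15, with a 95% interval of -0.20 to 0.46. In both genotypes the ethanol libraries are those that served in choosing the genes, so the values of the members in this comparison are a description. In WT mice 0% of 17395 genes were called with edgeR, 1841 had an unadjusted p under 0.05 and DESeq2 called 74. No member was among the calls of either tool, and Hsd17b11 was at 0.00 ± 0.13 (-0.27 to 0.28). The difference of the MitoGamide effect between the genotypes was fitted as an interaction, which called 0% of 17256 genes with either tool (1435 at an unadjusted p under 0.05). The interaction holds the ethanol pair that served in choosing the genes, so its values for the members are a description. It was 0.12 ± 0.21 for Hsd17b11 (-0.32 to 0.56), and 0.20 ± 0.10 for Hsd17b12.

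MitoQ was compared with water. In Akita mice 0% of 18496 genes were called with edgeR, 363 had an unadjusted p under 0.05 and DESeq2 called 0. Hsd17b11 had the largest member value, at 0.59 ± 0.27 with a 95% interval of 0.01 to 1.17 (adjusted p = 0.999), and its levels on MitoQ and water overlapped. The value was 0.33 with the libraries of at most 40% of counts in 10 genes and 0.38 without Akita replicate 1 on MitoQ. In WT mice, 0% of 17881 genes were called (575 at an unadjusted p under 0.05, 2 with DESeq2), and Hsd17b11 was at 0.05 ± 0.29 (-0.59 to 0.68). The interaction of MitoQ with genotype called 0% of 18225 genes (207 at an unadjusted p under 0.05, 1 with DESeq2). For Hsd17b11 it was 0.54 ± 0.42, with an interval of -0.34 to 1.42, so a difference between genotypes could not be detected with these libraries. No member was called by edgeR or DESeq2 in the MitoQ comparisons.

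**Figure D3:**
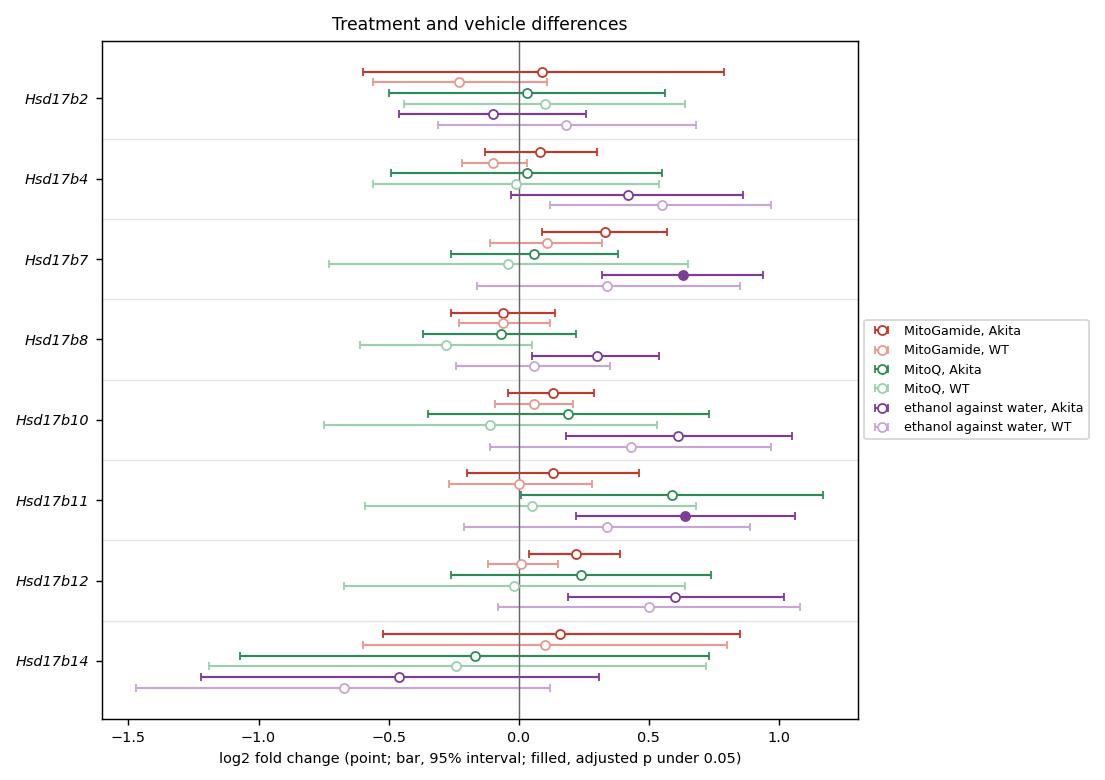
Log2 fold change with 95% interval for MitoGamide against ethanol, MitoQ against water, and ethanol against water vehicle, in Akita and WT mice. Filled points had an adjusted p under 0.05, which were Hsd17b7 and Hsd17b11 for ethanol against water in Akita mice. The ethanol libraries served in choosing the genes, so the values that use them are a description.

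Both vehicles were compared within each genotype, with the ethanol libraries that served in choosing the genes. The values and calls of the members in this comparison are therefore a description. In Akita mice, Hsd17b11 was 0.64 ± 0.19 (adjusted p = 0.0481, edgeR) and Hsd17b7 0.63 ± 0.14 (adjusted p = 0.0311) higher on ethanol than on water on the log2 scale, beside 12.7% of genes called and 3.66% called higher. Hsd17b7 was at 26.3, 19.8, 21.6, 18.8 and 25.1 CPM on ethanol and at 17.4, 11.1, 12.9, 16.0 and 15.2 CPM on water. Hsd17b7, Hsd17b10 and Hsd17b11 did not overlap between these groups, beside 10.3% of genes. Hsd17b10 (0.61 ± 0.20, adjusted p = 0.0570), Hsd17b12 (0.60 ± 0.19, adjusted p = 0.0544), Hsd17b4 (0.42 ± 0.20, adjusted p = 0.145) and Hsd17b8 (0.30 ± 0.11, adjusted p = 0.0808) were not called by edgeR. DESeq2 called Hsd17b10 (adjusted p = 0.0248) and Hsd17b12 (adjusted p = 0.0236), in a fit that called 23.8% of genes, and the fit of all 40 libraries called both as well (adjusted p = 0.0472 and 0.0484) but not Hsd17b11 (adjusted p = 0.0617). Hsd17b11 also missed the threshold without a filter on low counts (adjusted p = 0.0539). Library composition differed between these groups, since the ethanol libraries had at most 38.0% of counts in 10 genes and 3 of the 5 water libraries had more than 40%. Distal convoluted tubule markers summed to 821 to 965 CPM on ethanol and 1032 to 1840 CPM on water, which did not overlap. Proximal tubule markers had medians of 15970 and 12040 CPM, with ranges that overlapped. The part of these markers in the differences was not tested. With the libraries of at most 40% alone, Hsd17b11 was at 0.30 and Hsd17b7 at 0.44 and no member was called. With the receptor covariate both were at 0.21 while Hsd17b4 (-0.21), Hsd17b10 (-0.09) and Hsd17b8 (-0.05) turned below 0. Receptor levels were 752 to 1061 CPM of the library total on ethanol and 1062 to 2016 CPM on water. The groups did not overlap, so the covariate fit cannot cleanly separate the covariate from vehicle. Without Akita replicate 1 or 4 on water, 5 members were called, beside 36.2% and 34.5% of genes. Without replicate 2, 3 or 5 on water 0 members were called, beside 0.732%, 0.00564% and 0.00552% of genes. Without ethanol replicate 1, 2, 3 or 5 the count was also 0, beside at most 0.0111% of genes. It was 1 without ethanol replicate 4, beside 6.59% of genes. Vehicle and arm cannot be told apart from the library composition in the full set.

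In WT mice, ethanol against water called 0% of 18092 genes with edgeR, while 4959 had an unadjusted p under 0.05 and DESeq2 called 725. The fit of all 40 libraries called 8.68% of these genes, with no member among them. Hsd17b4 was at 0.55 ± 0.19 (adjusted p = 0.150) and Hsd17b11 at 0.34 ± 0.25. Without WT replicate 5 on water, Hsd17b4 (0.74) and Hsd17b12 (0.73) were called, beside 28.6% of genes. With the libraries of at most 40% of counts in 10 genes, Hsd17b11 was at -0.20, Hsd17b12 at -0.05 and Hsd17b4 at 0.16. Of the WT water libraries, this limit kept only replicates 1 and 5, and replicate 1 was the library that stood apart.

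**Figure D4:**
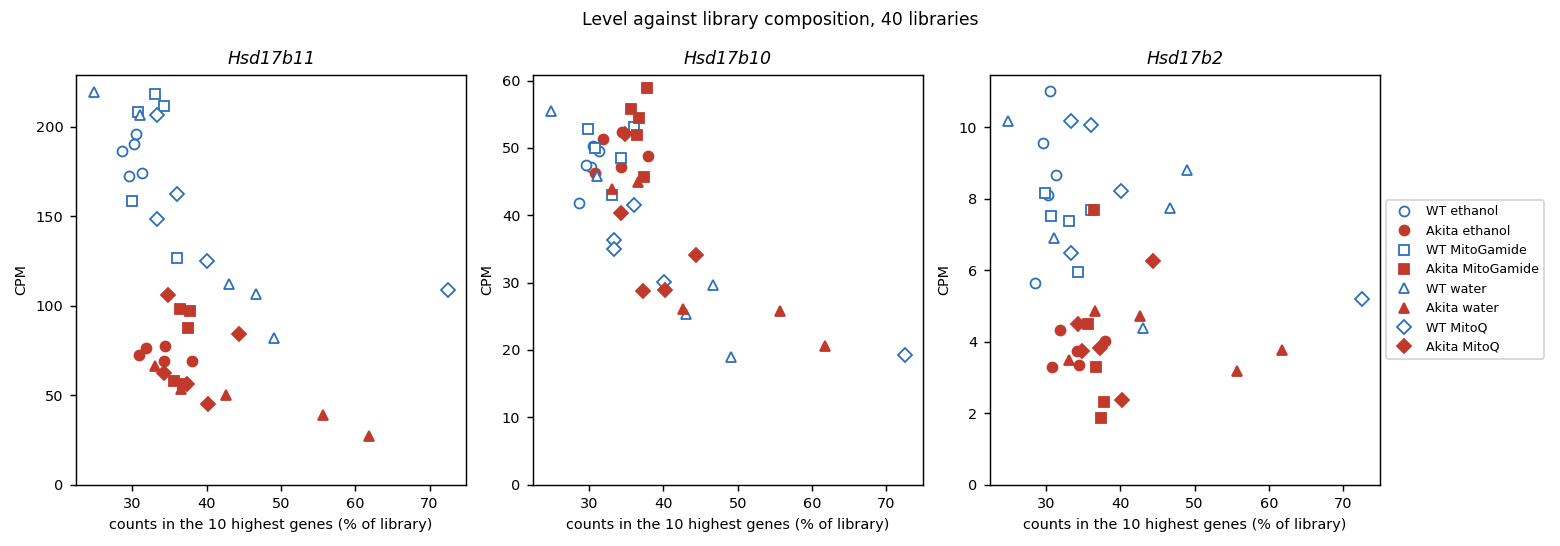
Level (CPM) of Hsd17b11, Hsd17b10 and Hsd17b2 in 40 libraries against the percentage of counts in the 10 highest genes of the library. Filled symbols are Akita and open symbols WT, and shapes give the treatment. Hsd17b10 fell with this percentage in both genotypes (r = -0.79 over 40 libraries). On MitoGamide, water and MitoQ, 10 of 15 Akita libraries had less Hsd17b11 than every WT library. The libraries were not matched on this percentage. The ethanol libraries served in choosing the genes, so their points are a description.

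Most members' levels also moved with each other within groups. Deviations from the group means had r = 0.89 for Hsd17b10 with Hsd17b12, 0.83 for Hsd17b4 with Hsd17b10, 0.82 for Hsd17b11 with Hsd17b12 and 0.72 for Hsd17b4 with Hsd17b7, over 40 libraries. Hsd17b2 had lower values, from 0.02 with Hsd17b4 to 0.40 with Hsd17b14. Hsd17b14 ran opposite to the other 6 members, from -0.50 with Hsd17b4 to -0.28 with Hsd17b8 and Hsd17b10. Over the raw levels, Hsd17b2 with Hsd17b11 had r = 0.69, against 0.16 within groups. These are descriptions, and the libraries share the composition differences given above.

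The genes most like Hsd17b11 over the 40 libraries, among 17768 others, were Aldh8a1 (r = 0.929), Adh1 (0.929), C1qtnf3 (0.924), Cpe (0.924) and Lipo3 (0.922). Within groups the same values were 0.71, 0.82, 0.70, 0.67 and 0.66. Adh1, an alcohol dehydrogenase, had a median of 151 CPM in Akita and 306 CPM in WT libraries, and C1qtnf3 of 19.5 and 71.5 CPM. The lowest correlations were those of Papln (-0.919), Cdk18 (-0.883), Gm6614 (-0.883), Zfp467 (-0.873) and Myo19 (-0.858). Within groups these were -0.63, -0.45, -0.61, -0.81 and -0.64. Papln had a median of 6.74 CPM in Akita and 2.76 CPM in WT libraries. These 10 genes were picked by correlation over all 40 libraries, with both genotypes and the ethanol pair among them. Their medians by genotype are therefore a description without a test.

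The closest relatives were mostly scarce. Hsd17b13, a liver lipid droplet protein and neighbour of Hsd17b11, had 0 to 22 counts per library, Hsd17b1 0 to 11, Hsd17b3 2 counts and Hsd17b6 7 counts in all 40 libraries together, and these 4 did not pass the filter. All counts of Hsd17b6 and the highest count of Hsd17b13 were in WT replicate 1 on water, the library that stood apart. Hsdl2, a peroxisomal relative, rose in Akita mice over the 30 libraries by 0.44 ± 0.14 (adjusted p = 0.0366, edgeR). Dhrs11 was at 0.22 ± 0.08 (adjusted p = 0.0501) and Hsdl1 at -0.01 ± 0.08 (adjusted p = 0.954).

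Genes of the pathways in which the members act were counted in the same 30 libraries, beside 13.5% of all genes called. The lists were chosen with earlier results of these data known. Of 28 genes of steroid synthesis, conversion and reception, 18 were tested, 2 rose and 5 fell in Akita mice. Srd5a2, a steroid reductase that makes dihydrotestosterone, fell by 1.91 ± 0.20 on the log2 scale (adjusted p = 4.0e-08, edgeR) and Hsd3b2 by 1.03 ± 0.16 (adjusted p = 3.9e-05), while Akr1c13 rose by 1.16 ± 0.21 (adjusted p = 1.7e-04). Hsd3b2 and Akr1c13 have near copies in the genome with which reads may have been shared. The median of the tested steroid genes was -0.05. Of 20 lipid droplet genes 16 were tested, of which Mgll, a monoglyceride lipase, rose by 0.87 ± 0.09 (adjusted p = 5.4e-08) and Fitm2 by 0.30 ± 0.10 (adjusted p = 0.0477), while Cideb fell by 0.31 ± 0.09 (adjusted p = 0.0187), with a median of 0.23.

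Of 24 peroxisomal genes, which share their compartment with Hsd17b4, 23 were tested, 5 rose and 2 fell, with a median of 0.06. Acot3, a thioesterase with close copies, rose by 1.60 ± 0.21 (adjusted p = 1.6e-06, edgeR), Amacr, the racemase of branched fatty acids, fell by 1.04 ± 0.17 (adjusted p = 4.7e-05) and Slc27a2 fell by 0.45 ± 0.09 (adjusted p = 4.1e-04). Of 12 elongation genes, the pathway of Hsd17b12, 10 were tested, 3 rose and 1 fell, with a median of 0.02. Elovl6 rose by 0.75 ± 0.16 (adjusted p = 0.00179) and Hacd1 by 0.33 ± 0.09 (adjusted p = 0.0137), whereas Hacd2 fell by 0.67 ± 0.16 (adjusted p = 0.00455).

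All 19 cholesterol synthesis genes, the pathway of Hsd17b7, were tested, and 2 fell, with a median of -0.08. These were Idi1, by 1.08 ± 0.23 (adjusted p = 0.00132, edgeR), and Mvd, by 0.39 ± 0.10 (adjusted p = 0.00761). None of the 9 mitochondrial fatty acid synthesis genes, which include the Hsd17b8 partner Cbr4, was called by edgeR or DESeq2, and 1 had an unadjusted p under 0.05, with a median of 0.00. Of 11 genes of mitochondrial RNase P and isoleucine breakdown, the processes of Hsd17b10, only Acat1 was called, which fell by 0.52 ± 0.15 (adjusted p = 0.0186), with a list median of 0.04.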

How the data were processed

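Renal cortex RNA of 40 mice was analysed, in 8 groups of 5 set by the sample labels. Per the labels and the study's methods, the authors trimmed the reads, assigned them to GENCODE mouse transcripts (GRCm38) with kallisto 0.46.1 and summed transcripts per gene in R 4.0.2. The deposited values are estimated counts, which were whole numbers, with no filter or scaling. The kit keeps strand, but the strand setting of the assignment is not given in the sources used here.

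Each comparison was fitted on its own libraries in R 4.3.3 with edgeR 4.0.16 (TMM, quasi-likelihood test) over all genes whose mean reached 10 counts. A Benjamini-Hochberg adjusted p under 0.05 was a call. The study's methods name DESeq2, which was an alternative here (version 1.42.0). SEs are the log2 fold change divided by the root of F. CPM used TMM over 40 libraries, and per-kilobase levels used the merged exons of GENCODE release M21. The p-values measure the spread between animals. The scripts were tested on simulated data.

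The members and gene lists were chosen with earlier results of these data known. By rule the text names the 8 members, up to 3 called genes a list with the smallest p over the 30 libraries, the relatives that passed the filter and the 5 genes with the highest and lowest correlation with Hsd17b11. The listed gene Sts was not found in the table and Peci was counted once, as Eci2.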

Additional observations from a re-analysis of the deposited data

Results flagged for a closer look

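Each member was looked at in each group for a library far from the other 4 (64 checks, of which chance gives about 1 in 20). Hsd17b4 was at 222.4 CPM in Akita replicate 5 on MitoGamide, where the other 4 libraries were at 156.7 to 164.4 CPM, so the gap was 0.88 of the range. Hsd17b8 was at 31.1 CPM in WT replicate 5 on ethanol, where the other 4 were at 35.5 to 37.2 CPM, a gap of 0.72 of the range. The explanation of either value was not tested. The interaction of MitoQ with genotype did not pass the threshold for any member.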

How the results depend on the processing

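Of 96 member values over the 12 tested comparisons, 6 were called and 0 of these changed sign under any alternative. The 2 calls for ethanol against water in Akita mice rest on libraries that served in choosing the genes and are a description. For Akita against WT over the 30 libraries, 2 members were called in every alternative but 2, namely the receptor covariate (4 members, beside 18.6% of genes) and the libraries of at most 40% of counts in 10 genes (3 members, beside 16.9%), a choice made after seeing the data. On MitoGamide 4 members were called with DESeq2 (18.5% of genes) and 0 with the receptor covariate (0.546%), against 2 (14.3%). On water 2 were called with DESeq2 (1.93% of genes) and 1 each with the filter of 10 counts per library (0.61%), the fit of all 40 libraries (2.97%), the receptor covariate (2.09%) and the libraries of at most 40% (1.75%), against 0 (0.552%). On MitoQ 2 were called with DESeq2 (2.29%) and in the 40-library fit (1.65%) and 1 each with the receptor covariate (1.39%) and the libraries of at most 40% (0.861%), against 0 (0.557%). For ethanol against water in Akita mice 4 were called with DESeq2 (23.8%), 1 without a filter on low counts (3.8%) and 0 with the receptor covariate (0.00558%) and the libraries of at most 40% (0.0335%), against 2 (12.7%). The limit of 40% left Akita replicates 1 and 4 and WT replicates 1 and 5 on water. That WT replicate 1 was the library that stood apart. Receptor levels did not overlap between the genotypes on MitoGamide, or between ethanol and water in Akita mice. The cause of these changes was not tested.

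With 1 library left out, counts of called members ranged from 0 to 1 on water (beside 0.177% to 0.518% of genes) and 0 to 2 on MitoQ (0.193% to 1.47%). They were 2 to 3 on MitoGamide (7.44% to 16.9%). For ethanol against water they ranged from 0 to 5 in Akita mice (0.00552% to 36.2%) and 0 to 2 in WT mice (0% to 28.6%). Replicate numbers did not pair the samples, since in no comparison did every same-numbered pair correlate above 0.1. The replicate block moved the genes called from 2283 to 0 and the members from 2 to 0 for ethanol against water in Akita mice. The log2 values there were 0.70 for Hsd17b11 and 0.64 for Hsd17b7, against 0.64 and 0.63 without the block. Genes called went from 214 to 0 for MitoGamide in Akita mice. For Akita against WT they went from 101 to 32 on water and from 101 to 48 on MitoQ. Member counts were equal in all comparisons but ethanol against water in Akita mice.

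Some values changed sign. With the receptor covariate, Hsd17b10 over the 30 libraries was -0.10, Hsd17b11 for the MitoGamide interaction was -0.01, Hsd17b4, Hsd17b8 and Hsd17b10 for ethanol against water in Akita mice were -0.21, -0.05 and -0.09, and Hsd17b11 in WT mice was -0.02. With the libraries of at most 40%, Hsd17b4 was -0.05 for ethanol against water in Akita mice, and Hsd17b11 was -0.20 in WT mice and -0.28 for MitoQ in WT mice. Only replicates 1 and 5 of WT mice on water were within this limit, and replicate 1 stood apart. For MitoGamide in WT mice Hsd17b11 was 0.00 without a filter (negative before rounding), -0.02 with the replicate block and -0.07 to 0.11 with 1 library left out, and for MitoQ in WT mice it was -0.10 to 0.24 with 1 library left out. For Akita against WT, Hsd17b7 was 0.02 on water with the replicate block and -0.17 to 0.19 with 1 library left out, and on MitoQ it was -0.16 with the libraries of at most 40% and -0.12 to 0.15 with 1 library left out. Hsd17b12 for ethanol against water in WT mice was -0.05 with the libraries of at most 40% and 0.34 to 0.73 with 1 library left out. Of the 59 values given only as ranges or counts, 34 changed sign under at least 1 alternative. Hsd17b14 had no value where each library needed at least 10 counts in most comparisons. Depth limits Hsd17b14 and Hsd17b2 most.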
